A study of Homo sapiens with 4 samples.

Results

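SOST and 7 other genes for secreted BMP and activin antagonists were followed in differentiating human embryonic stem cells with and without the TGFβ inhibitor SB431542. The members were SOST, SOSTDC1, NOG, CHRD, GREM1, FST, FSTL3 and BMPER, taken by symbol, and each symbol had 1 row, so that 8 of the 58365 rows of the expression table were used. The genes were selected on the SB against DMSO difference in these same 4 libraries, so their differences are given below as a description, with no test.

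BMPs and activins are secreted ligands of the TGFβ superfamily that act through pairs of type I and type II receptor kinases and through SMAD proteins. Secreted antagonists hold the ligands outside the cell and so set how far a signal reaches. NOG (noggin), CHRD (chordin) and GREM1 (gremlin) bind BMPs, FST (follistatin) and FSTL3 bind activins, and BMPER, known from endothelial cells, binds BMPs and can act on them in either direction. SOST encodes sclerostin, best known as an osteocyte product that binds the WNT co-receptors LRP5 and LRP6, and SOSTDC1 is its closest relative.

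H1 cells, an established line, were differentiated stepwise toward blood. The cells of all 4 samples received 40 ng/ml activinA with 50 ng/ml BMP4 for 2 days, followed by 40 ng/ml VEGF with 50 ng/ml bFGF for 3 days. In the last 3 days VEGF and bFGF were continued, with the vehicle DMSO in 2 samples (DMSO replicates 1 and 2) or with SB431542, which blocks type I receptors for TGFβ, activin and nodal, in 2 samples (SB replicates 1 and 2), and RNA was taken on day 8. Both groups had therefore been exposed to an activin and a BMP before the inhibitor. By the study's description the sequenced cells were CD31-positive, which the labels do not mention, and a single cell line was used. The labels do not say whether the replicates came from separate cultures, so the SDs and p-values measure the spread between these samples, which may be technical.

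Values are FPKM, the fragments assigned to a gene per kilobase of transcript, scaled to the mapped fragments of the library, so that levels can be compared between genes per unit of length. Depth was estimated from the step that 1 fragment makes in the values of genes with 1 transcript, and was 24200000 and 23400000 fragments, to 3 digits, in the DMSO libraries and 19600000 and 26000000 in the SB libraries. Between 85.6% and 87.2% of the low values used lay within 0.1 of a whole number of fragments, against 20% for values spread evenly. The endothelial genes PECAM1, which encodes CD31, and CDH5 were high in all 4 libraries, at 153 to 197 and 202 to 273 FPKM. The mitochondrial share of the summed FPKM was 5.88% and 6.64% in the libraries numbered 1 and 9.92% and 10.2% in those numbered 2, and the antagonists' differences are therefore also given within a number.

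SOST (ENSG00000167941.2) lies on the minus strand of chromosome 17 at 43753731 to 43758788 (GRCh38), with 2 exons and 1 annotated transcript of 2300 nt. The RefSeq promoter on the same strand is shown because SOST had the lowest SB value relative to DMSO among the 8 antagonists. It holds the 250 bases before the start, chr17:43758792-43759041 on GRCh38.p14, and is read 5′ to 3′.
SOST promoter: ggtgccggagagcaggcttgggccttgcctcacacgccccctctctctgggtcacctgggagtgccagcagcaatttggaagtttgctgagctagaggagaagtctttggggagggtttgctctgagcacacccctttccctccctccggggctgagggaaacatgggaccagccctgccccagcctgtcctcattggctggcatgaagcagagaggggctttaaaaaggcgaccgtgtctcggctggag
The letters CAGAC and GTCTAGAC, known as SMAD-binding elements, and GGCGCC, a GC-rich SMAD motif, were searched on both strands. None of the 3 occurs in this window, and nothing is therefore in capitals. Over 27305 promoters of the same length, CAGAC was found in 37.9%, GTCTAGAC in 0.190% and GGCGCC in 15.8%. A match or its absence describes these letters only. Of the 8 antagonists, 6 had a promoter entry (not SOSTDC1 or NOG). CAGAC occurred in both entries of GREM1 and in no other, and GGCGCC occurred in CHRD, FSTL3, both entries of BMPER and 1 entry of GREM1.

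SOST was measured at 24.9 and 20.8 FPKM in the DMSO libraries (22.8 ± 2.89, SD, n = 2), and with SB its values were 1.24 and 1.01 FPKM (1.12 ± 0.159, n = 2). The groups lay far apart, with the DMSO mean 20.3-fold the SB mean. In estimated fragments this was 1221 and 984 with DMSO against 49 and 53 with SB, and the exact 95% Poisson intervals, which cover counting error only, were 923 to 1047 for the lower DMSO library and 39.7 to 69.3 for the higher SB library. The SB values thus rested on far fewer fragments than the DMSO values. On the log2(FPKM + 1) scale the difference SB minus DMSO was -3.49 (SE 0.19), with -3.53 within number 1 and -3.44 within number 2. Only 10 of the 14909 tested genes had a lower difference, which placed SOST at rank 11.

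**Figure D1:**
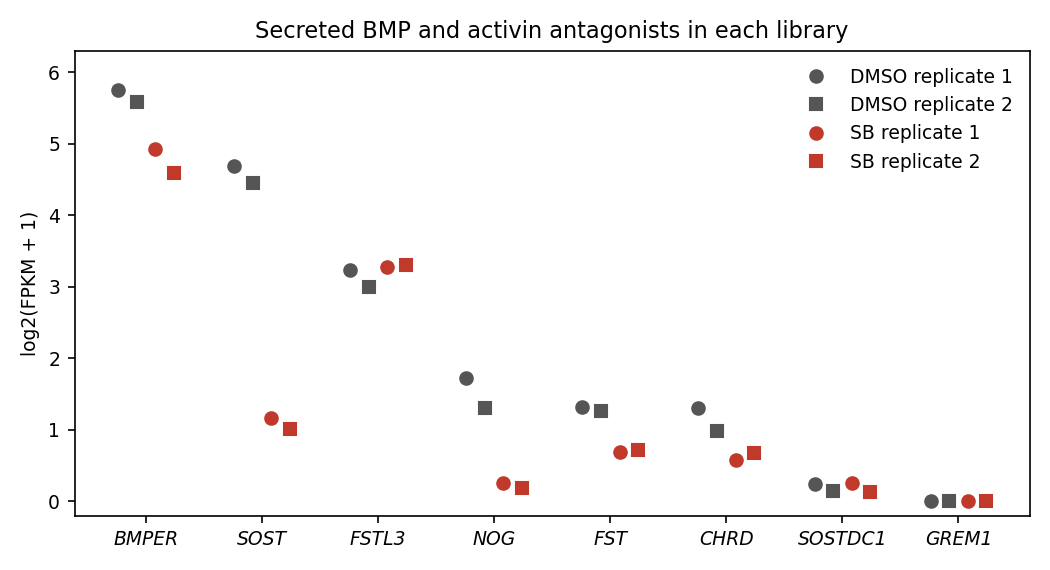
Level of each of the 8 antagonists on the log2(FPKM + 1) scale (vertical axis), with 1 point per library, grey for DMSO and red for SB, circles for replicate 1 and squares for replicate 2. SOST is above 20 FPKM in both DMSO libraries and near 1 FPKM in both SB libraries, while FSTL3 and SOSTDC1 show no such gap and GREM1 is at 0.

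SOSTDC1 (ENSG00000171243.7), whose product binds both BMPs and LRP6, was barely detected. It lies on the minus strand of chromosome 7 at 16461481 to 16530580, and 2 genes of the opposite strand, LRRC72 and AC005014.3, overlap it, whose reads cannot be told apart from its own where strand was not used in counting. It was listed at 0.181 and 0.108 FPKM with DMSO and 0.193 and 0.0971 FPKM with SB. The groups overlapped, with a log2 difference of 0.00 (0.01 within number 1 and -0.01 within number 2). The values stand for at most 9.37 fragments in any library, whichever annotated transcript is assumed, so that no difference was detectable at this depth in this relative of SOST.

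Among the BMP antagonists, NOG (ENSG00000183691.4; chromosome 17, 56593699 to 56595590, plus strand, a single exon of 1892 nt) was low with DMSO and lower with SB. It was measured at 2.32 and 1.46 FPKM with DMSO (1.89 ± 0.609, n = 2) and 0.190 and 0.144 FPKM with SB (0.167 ± 0.0327, n = 2). The groups did not overlap and the DMSO mean was 11.3-fold the SB mean. These values correspond to 91 and 55 fragments with DMSO and 6 fragments in each SB library, where the 95% Poisson interval, for counting error only, ran from 2.20 to 13.1. The log2(FPKM + 1) difference was -1.29 (SE 0.26), with -1.48 and -1.10 within numbers 1 and 2. Because the pseudocount of 1 FPKM weighs on so low a gene, the log2 ratio of its mean FPKM was -3.50, nearer to that of SOST at -4.35.

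CHRD (ENSG00000090539.15) lies on the plus strand of chromosome 3 at 184380073 to 184390736, where THPO overlaps it on the opposite strand. Its values were 1.46 and 0.971 FPKM with DMSO (1.21 ± 0.343, n = 2) and 0.492 and 0.597 FPKM with SB (0.544 ± 0.0739, n = 2). The SB mean was 44.9% of the DMSO mean and the groups did not overlap, but the size differed between the replicate numbers, at 66.2% lower within number 1 and 38.5% lower within number 2. The log2(FPKM + 1) difference was -0.51 (SE 0.24), with -0.72 and -0.30 within numbers 1 and 2.

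BMPER (ENSG00000164619.8) was the antagonist with the highest level in both groups and lies on the plus strand of chromosome 7 at 33904911 to 34155872. It was measured at 52.7 and 46.8 FPKM with DMSO (49.8 ± 4.14, n = 2) and 29.5 and 23.0 FPKM with SB (26.3 ± 4.61, n = 2). SB values were thus 44.0% lower within number 1 and 50.9% lower within number 2, with a log2(FPKM + 1) difference of -0.90 (SE 0.20; -0.81 and -0.99 within numbers 1 and 2). In FPKM, the gap between the group means of BMPER was slightly wider than that of SOST, although its ratio, 1.89-fold, was far smaller. GREM1 (ENSG00000166923.10; chromosome 15, 32717974 to 32745107, plus strand) was listed at 0 in all 4 libraries. An exact 0 in such a table can be a failed estimate. CD99 was also listed at 0 in every library, while 0 of 10 housekeeping genes checked were at 0 in any. Nothing is therefore read from the 0 of GREM1.

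The activin antagonists FST and FSTL3, which are related in sequence and both bind activins with high affinity, had different values. FST (ENSG00000134363.11; chromosome 5, 53480409 to 53487134, plus strand) was measured at 1.49 and 1.41 FPKM with DMSO (1.45 ± 0.0563, n = 2) and 0.618 and 0.651 FPKM with SB (0.635 ± 0.0230, n = 2). Its groups were separate, with SB at 43.7% of DMSO, and the log2(FPKM + 1) difference was -0.59 (SE 0.21), close to the same within numbers 1 and 2 (-0.62 and -0.55). FSTL3 (ENSG00000070404.9; chromosome 19, 676365 to 683399, plus strand) was measured at 8.40 and 7.01 FPKM with DMSO (7.71 ± 0.985, n = 2) and 8.69 and 8.93 FPKM with SB (8.81 ± 0.169, n = 2). It was the one antagonist with both SB values above both DMSO values, by a small margin, at a log2(FPKM + 1) difference of 0.18 (SE 0.17) that was 0.04 within number 1 and 0.31 within number 2.

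**Figure D2:**
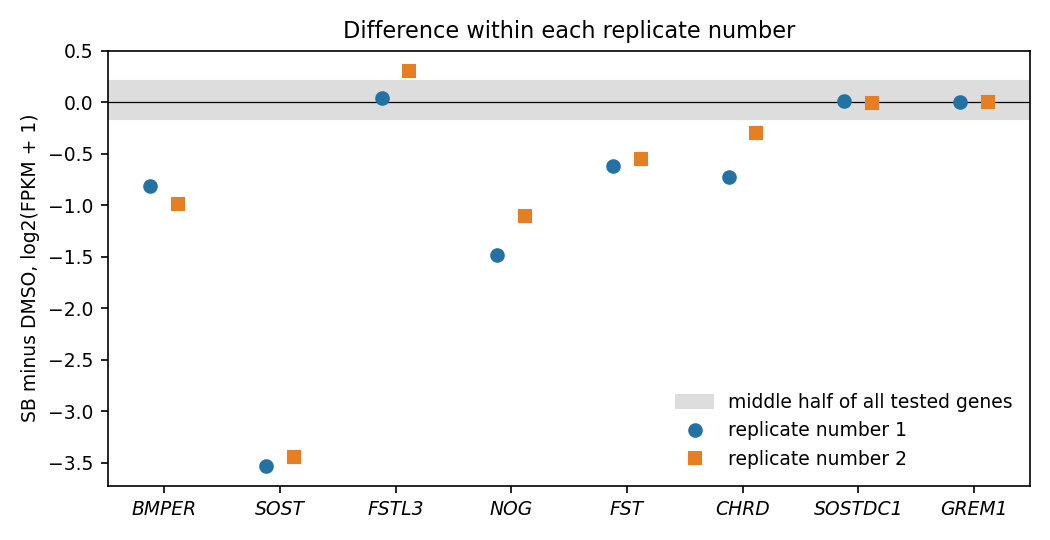
Difference SB minus DMSO on the log2(FPKM + 1) scale (vertical axis) for each antagonist within replicate number 1 (blue circles) and number 2 (orange squares), with the band between the quartiles of all tested genes, -0.16 and 0.21, in grey. SOST, NOG, BMPER, FST and CHRD lie below the band within both numbers. The band is drawn from differences of the group means, not from differences within a number.

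Of the 8 antagonists, 5 had both SB values below both DMSO values, 1 had them above, 1 had overlapping groups and 1 was at 0 throughout. Among the 14909 tested genes, those with a mean of at least 1 FPKM in at least 1 group, the share with SB below DMSO was 16.0% and the share with SB above DMSO was 21.5%. The same 5 antagonists were lower with SB within both replicate numbers, as were 30.6% of tested genes. A log2 difference of -1 or lower was found for SOST and NOG, against 2.16% of tested genes. limma with Benjamini-Hochberg adjustment called 20 genes, or 0.134%, of which 16 were lower and 4 higher with SB, and 1485 had an unadjusted p under 0.05. SOST was the 1 antagonist among the 20, and was no longer among the called genes when any 1 of the 4 libraries was left out. As the antagonists were chosen by this contrast, these shares are printed beside the counts and nothing is read from them. The antagonists entered the test in 6 cases. NOG, CHRD and FST passed the 1 FPKM minimum through the DMSO group alone, and SOSTDC1 and GREM1 did not pass. The median log2 difference was -0.55 over the 8 antagonists, which counts the untested SOSTDC1 and GREM1 at 0.00 each, and 0.04 over all tested genes.

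The order of levels changed between the groups. With DMSO it ran BMPER, SOST, FSTL3, a group of NOG, FST and CHRD whose ranges overlapped, then SOSTDC1 and GREM1. With SB, FSTL3 stood above SOST and NOG was last of the detected genes together with SOSTDC1, whose ranges overlapped. The summed FPKM of the 8 was 91.4 and 78.6 with DMSO and 41.0 and 34.4 with SB. SOST made up 27.2% and 26.5% of that sum with DMSO and 3.02% and 2.94% with SB, and the share of FSTL3 was 9.19% and 8.92% against 21.2% and 25.9%. BMPER was the largest part of the sum in every library, at 57.6% to 72.1%.

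The genes most like SOST over the 4 libraries, by the distance between log2(FPKM + 1) values centred on each gene's own mean, were AL591623.2 (distance 0.34), APOA1 (0.35), LCN15 (0.39), AFP (0.40) and HTRA1 (0.53). APOA1, an apolipoprotein of liver and intestine, was measured at 64.2 and 56.3 FPKM with DMSO and 3.31 and 3.39 FPKM with SB. AFP, the fetal plasma protein alpha-fetoprotein, was measured at 43.5 and 54.2 FPKM with DMSO and 3.45 and 3.05 FPKM with SB. Both thus had the same DMSO-high pattern as SOST at higher levels. LCN15, a lipocalin, was at 33.3 and 21.6 against 1.28 and 0.847 FPKM, and HTRA1, a secreted serine protease, at 41.7 and 45.9 against 5.04 and 3.89 FPKM. AL591623.2 was at 14.8 and 9.22 FPKM with DMSO and listed at 0 in both SB libraries. Its place in this order rests on these 0 values, which can be failed estimates.

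The expressed genes nearest to SOST on chromosome 17 had similar values in both groups. DUSP3, a phosphatase gene 7333 nt away, was measured at 18.8 and 24.6 FPKM with DMSO and 18.6 and 21.7 FPKM with SB (log2 difference -0.09, limma adjusted p = 0.959). ETV4, a transcription factor gene 174111 nt away on the other side, was at 34.5 and 22.4 against 28.5 and 18.8 FPKM (log2 difference -0.26, limma adjusted p = 0.893). No gene with a mean of at least 1 FPKM lay within 200 kb of NOG or BMPER.

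Markers of several other cell types also differed between the groups, and are given as the summed FPKM of each list. The lists were chosen with earlier results of these data known. Of all tested genes, 0.134% were called, 16.0% had SB below DMSO and 21.5% had SB above DMSO. A gene that passed the 1 FPKM minimum through 1 group alone was bound to have its higher mean there. This tilts list counts and medians. Through the DMSO group alone passed APOB, FOXA1, FOXA2 and HNF4A (endoderm and liver), PRRX1 (mesenchymal), CLDN4 (epithelial), MYL7 and ACTN2 (cardiac) and TDGF1 (pluripotent). POU5F1 (pluripotent) passed through the SB group alone. The endoderm and liver list, which holds AFP and APOA1, stood at 283 and 318 with DMSO and 29.2 and 32.2 with SB, and 4 of its 8 tested genes (AFP, TTR, APOA1, APOA2) were called lower, while 7 of 8 had SB below DMSO. These 4 calls, like that of SOST, were lost when any 1 library was left out. The mesenchymal list was at 321 and 269 with DMSO and 129 and 119 with SB, with 8 of 9 tested genes below and 0 called. Its first gene, PDGFRA, was at 4.03 and 5.59 against 2.10 and 2.41 FPKM. The epithelial list was at 259 and 253 against 117 and 125, with 7 of 7 tested genes below, 0 of them called. None of the genes of these 3 lists was at 0 in every library.

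The hematopoietic list was at 423 and 360 with DMSO and 718 and 608 with SB, with 9 of 9 tested genes above and 0 called. The endothelial list overlapped between the groups, at 1857 and 1633 against 1814 and 1625. The summed cardiac list also overlapped (112 and 107 against 104 and 118), but 3 of its 4 tested genes had SB below DMSO, with a median log2 difference of -0.86 and 0 called. Most of that sum was MYL4, a myosin light chain named here after its values were seen, at 61.5 and 79.5 against 91.8 and 111 FPKM, while NKX2-5, a cardiac transcription factor named in the same way, was at 45.3 and 21.9 against 10.4 and 5.23 FPKM. The neural list was at 80.8 and 45.7 against 45.6 and 27.3 and the pluripotent list at 70.6 and 90.6 against 93.8 and 115. The median log2 difference of the 2 tested neural genes was -0.78 within number 1 and -0.72 within number 2. For the 4 tested pluripotent genes it was 0.31 and 0.26. Both SB values lay below both DMSO values in 1 neural and 1 pluripotent gene and above them in 2 pluripotent genes, with 0 called. The study describes a collection of CD31-positive cells, and how far it removed endoderm, mesenchymal, epithelial and cardiac cells was not tested here. Whether any of these cell types had a part in the antagonists' values was not tested. In bulk RNA, fewer cells of a type and less RNA per cell cannot be told apart.

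**Figure D3:**
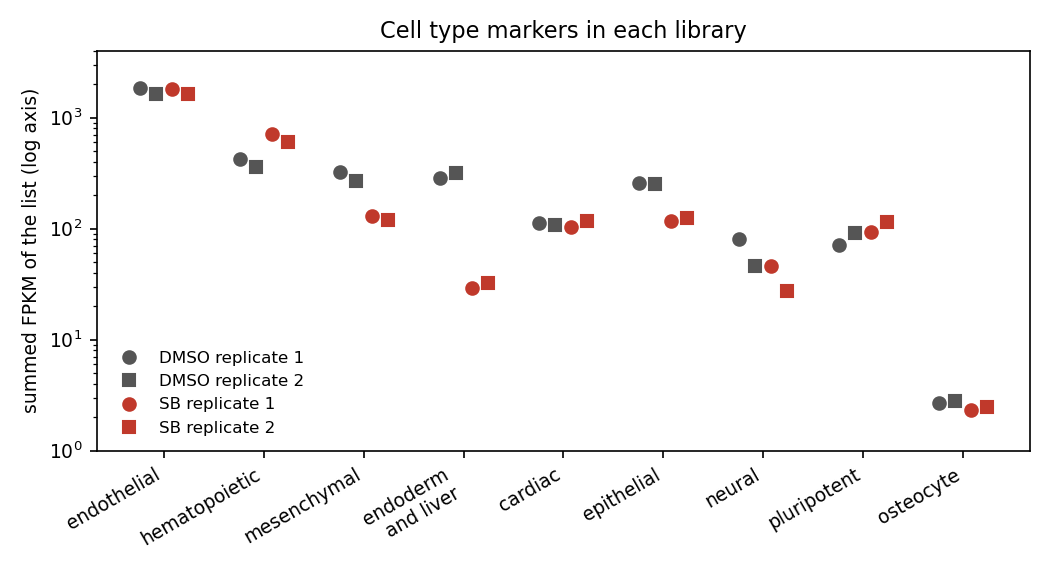
Summed FPKM of each cell type marker list (vertical log axis) with 1 point per library, grey for DMSO and red for SB, circles for replicate 1 and squares for replicate 2. The endoderm and liver list drops from 283 and 318 with DMSO to 29.2 and 32.2 with SB, the mesenchymal and epithelial lists are also lower with SB, and the osteocyte list is below 3 FPKM in all libraries.

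Sclerostin is a product of osteocytes, so genes of bone cells were examined in the same libraries. The 4 osteocyte markers DMP1, PHEX, MEPE and FGF23 summed to 2.33 to 2.83 FPKM. Nearly all of this was FGF23, a phosphate-regulating hormone, at 2.66 and 2.76 FPKM with DMSO and 2.27 and 2.43 with SB. The other three did not reach 1 FPKM anywhere, MEPE being listed at 0 in every library. Of the 10 bone-cell genes listed, 8 stayed under 1 FPKM in all libraries. ALPL, an alkaline phosphatase, was the other tested gene, at 1.76 ± 1.07 against 0.516 ± 0.230 FPKM (SD, n = 2 each; log2 difference -0.82, limma adjusted p = 0.564). SOST was thus measured at over 20 FPKM with DMSO in libraries in which FGF23 was under 3 FPKM and DMP1 and PHEX did not exceed 0.0181 and 0.0604 FPKM, and nothing is read from the 0 of MEPE.

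The co-receptors that sclerostin binds had similar values in both groups. LRP6 was at 14.6 and 18.1 FPKM with DMSO and 13.3 and 16.4 FPKM with SB, LRP5 at 11.0 and 6.20 against 11.2 and 6.58 FPKM, and LRP4, which anchors sclerostin in bone, at 7.91 and 7.62 against 7.81 and 6.29 FPKM. Their log2 differences were -0.13, 0.05 and -0.13, and limma called 0 of the 3. Of 11 other secreted WNT antagonists, 7 were tested and 0 were called, with a median log2 difference of -0.27. This median rested on single libraries, at -0.08 without DMSO replicate 1, -0.43 without DMSO replicate 2, -0.56 without SB replicate 1 and 0.01 without SB replicate 2. DKK1, an LRP6 ligand, was at 4.21 and 3.31 FPKM with DMSO and 1.98 and 1.94 FPKM with SB (log2 difference -0.68, limma adjusted p = 0.374). SFRP5 and SFRP2, which bind WNT proteins directly, had log2 differences of -0.66 and -0.52 (limma adjusted p = 0.785 and 0.573).

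The other secreted antagonists of the superfamily were mostly low in these libraries. Of 20 listed genes, 13 stayed under 1 FPKM in every library, 7 were tested and 0 were called, and their median log2 difference was -0.07. SB values lay below both DMSO values in 1 of the 7 and above both in 2. The largest difference was that of LEFTY1, a nodal inhibitor, in the opposite direction, at 0.427 and 0.739 FPKM with DMSO and 2.57 and 2.61 FPKM with SB (log2 difference 1.19, limma adjusted p = 0.200). CRIM1, a membrane-anchored BMP binder, was at 22.6 and 22.7 against 30.9 and 29.1 FPKM (0.39, limma adjusted p = 0.520). WFIKKN1, which binds myostatin, was at 5.29 and 2.46 against 2.62 and 2.06 FPKM (-0.49, limma adjusted p = 0.762). BMP1, the protease that cleaves chordin, was the 1 tested gene of its list of 3, at 15.7 ± 1.01 against 13.7 ± 1.42 FPKM (SD, n = 2 each; -0.18, limma adjusted p = 0.845).

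Among 21 ligands, 10 were tested and 0 were called, with a median log2 difference of -0.35 (-0.57 within number 1 and -0.24 within number 2). It was -0.04 without DMSO replicate 1, -0.74 without DMSO replicate 2, -0.70 without SB replicate 1 and -0.08 over all listed genes with no filter. BMP4, which noggin and chordin bind, was at 17.7 and 14.4 FPKM with DMSO and 5.49 and 5.04 FPKM with SB (log2 difference -1.44, limma adjusted p = 0.0983). BMP2 was at 2.62 and 1.89 against 1.16 and 0.742 FPKM (-0.73, limma adjusted p = 0.438). BMP2 and BMP7 passed the 1 FPKM minimum through the DMSO group alone. TGFB2 (-1.60, limma adjusted p = 0.308) and BMP6 (-1.23, limma adjusted p = 0.402) also had SB values below both DMSO values. INHBA, the activin A subunit that follistatin binds, did not exceed 0.127 FPKM, so this message was scarce in every library.

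Of 19 receptors and co-receptors, 14 were tested and 0 were called, with a median log2 difference of -0.07. ENG (endoglin), an endothelial co-receptor, had the largest difference, at 64.2 and 47.9 FPKM with DMSO and 17.8 and 14.7 FPKM with SB (log2 difference -1.72, limma adjusted p = 0.0986). TDGF1, a nodal co-receptor, was at 0.804 and 1.31 against 0.224 and 0.298 FPKM (-0.70, limma adjusted p = 0.480). BMPR2, the BMP type II receptor, was at 9.26 and 12.9 against 5.91 and 6.92 FPKM (-0.69, limma adjusted p = 0.411).

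Of 12 BMP target genes, 10 were tested and 0 were called, with a median log2 difference of -0.70. Both SB values lay below both DMSO values in 9 of the 10, against 16.0% of all tested genes. SMAD9 passed the 1 FPKM minimum through the DMSO group alone. SMAD6, an inhibitory SMAD, was at 372 and 162 against 66.9 and 30.5 FPKM (-2.41, limma adjusted p = 0.259). The SMAD6 difference was -2.46 within number 1 and -2.37 within number 2, while its p-value comes from a fit that did not pair the numbers. ID1, an inhibitor of basic helix-loop-helix factors, was at 470 and 505 against 179 and 187 FPKM (-1.41, limma adjusted p = 0.0803). MSX2, a homeobox factor, was at 4.47 and 3.00 against 1.52 and 1.33 FPKM (-0.95, limma adjusted p = 0.301), and since the study picked MSX2 from these libraries its direction is not independent evidence.

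Of 20 SMAD2/3 target genes, which lie downstream of the receptors that SB431542 blocks, 15 were tested, 1 was called lower and 0 were called higher, and the median log2 difference was -1.70 over the tested genes and -0.75 over all those listed, with no filter. SB lay below DMSO in 12 of the 15 and above it in 2, against 16.0% and 21.5% of all tested genes. The 2 above were LEFTY1 (1.19) and TIMP3, a metalloproteinase inhibitor named here after its values were seen. TIMP3 was at 134 and 157 against 293 and 318 FPKM (log2 difference 1.07, limma adjusted p = 0.149). LEFTY1 passed the 1 FPKM minimum through the SB group alone, and CCN2 and MIXL1 through the DMSO group alone. The called gene was TGFBI, an extracellular matrix protein, at 29.7 and 31.0 FPKM with DMSO and 4.10 and 4.93 FPKM with SB (log2 difference -2.51, limma adjusted p = 0.0365). Its adjusted p was 0.137 to 0.182 when 1 library was left out. The list shares COL1A1, TAGLN and ACTA2 with the mesenchymal markers, LEFTY1, LEFTY2 and CER1 with the other antagonists, and NODAL with the ligands. BAMBI is in both the receptor list and the BMP target list. SOST, at -3.49, lay below every tested gene of these target lists, where the lowest was TGFBI.

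**Figure D4:**
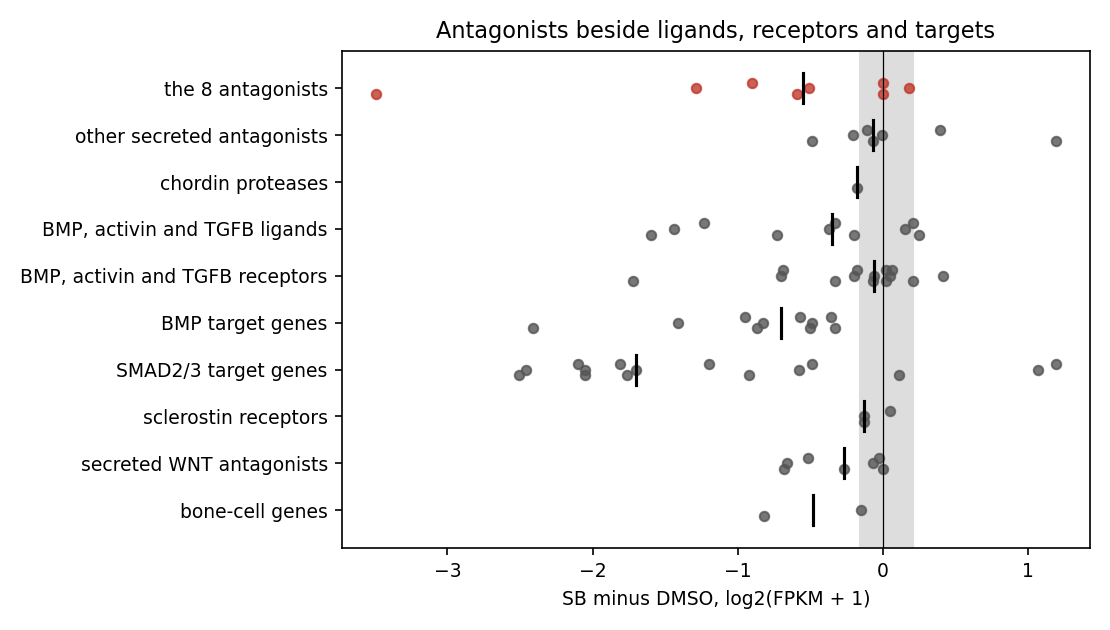
Difference SB minus DMSO on the log2(FPKM + 1) scale (horizontal axis) for the 8 antagonists (red) and for the tested genes of each pathway list (grey), with 1 point per gene, a black bar at each list's median and a grey band between the quartiles of all tested genes. The SOST point at -3.49 lies to the left of all other points, the medians of the receptor and other-antagonist lists lie at -0.07, and that of the SMAD2/3 targets lies at -1.70.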

How the data were processed

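The authors deposited FPKM values in 1 table of 58365 rows with 1 column per library. The submitters' processing notes name BWA, Bowtie, RSEM and hg19, with no versions or roles. The loci in the table match GENCODE release 29 on GRCh38, however: 95.5% of identifiers had the same version there and 99.8% of these the same position, and coordinates are given on GRCh38, counted from 1. The version of BMPER differed. Use of strand in counting is not given in the sources used here.

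Groups came from the sample titles. The antagonists and all gene lists were chosen with earlier results of these data known. Values were transformed to log2(FPKM + 1), which understates the change of low genes. Genes with a mean of at least 1 FPKM in at least 1 group (14909) were tested between SB and DMSO in R 4.3.3 with limma 3.58.1 (empirical Bayes with trend, group as the only term, two-sided, Benjamini-Hochberg, adjusted p under 0.05), after a test on simulated data. An exact permutation test of 2 against 2 cannot go below 0.333. No adjusted p is given for an antagonist.

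All antagonists were named, with genes past the threshold in each list or otherwise up to 3 with the largest difference, and the antagonists' binding partners. Markers were given by list and mainly by its first genes. HJV and CCN2 were matched by identifier. In the receptor, WNT antagonist and bone-cell lists, TDGF1, SFRP2 and ALPL passed the 1 FPKM minimum through the DMSO group alone. Fragments per library were estimated, by a method chosen after seeing the data, from genes with 1 transcript of at least 1000 nt, taking between 271 and 284 nt off each length. Promoters are from RefSeq. Protein sequences were not analysed here. Alternatives were the replicate block, other filters, a pseudocount of 0.1, quantile and upper-quartile scaling, and leaving out each library.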

Additional observations from a re-analysis of the deposited data

How the results depend on the processing

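The number of genes called between SB and DMSO was 20, and depended on the test more than the antagonists' differences did. With the replicate number as a replicate block it was 1564 of 14909 tested genes (820 higher, 744 lower), including all 20. SOST, NOG and BMPER were among them, but the antagonists were chosen by this contrast and nothing is read from that. The numbers come from the titles alone, which do not say what libraries of the same number share. Deviations of same-numbered libraries from their group means correlated at r = 0.528. The first 2 principal components held 47.4% and 38.7% of the variance. The adjusted p-values printed for list genes come from the fit without this block, and the block itself rests on 2 pairs. With no filter on low values limma called 0 genes, with 2739 at an unadjusted p under 0.05. Leaving out 1 library gave 0 to 14 called genes (0 without DMSO replicate 1, 14 without DMSO replicate 2, 10 without SB replicate 1 and 9 without SB replicate 2), SOST in none of these fits, where the lone sample is assumed to vary like the other group. Quantile normalization gave 30, upper-quartile scaling 27, and a pseudocount of 0.1 and a minimum of 5 FPKM in 2 libraries 20 each, SOST included.

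Lower values with SB within both replicate numbers were found for 5 antagonists. This was 2 with the minimum of 5 FPKM, which only SOST, FSTL3 and BMPER pass. It was 6 with upper-quartile scaling, and 5 to 6 with 1 library left out, counted in the number still complete. Over the alternatives, log2 differences ranged from -4.35 to -3.36 for SOST, -3.50 to -1.08 for NOG, -1.16 to -0.35 for CHRD, -1.20 to -0.55 for FST, -1.08 to -0.73 for BMPER and 0.06 to 0.29 for FSTL3. The far ends for SOST, NOG, CHRD and FST came from the ratio of mean FPKM with no pseudocount. SOSTDC1 changed sign, between -0.06 and 0.06. Several list medians crossed 0 with 1 library left out: the other secreted antagonists (-0.23 to 0.21), the chordin proteases (-0.28 to 0.15), the secreted WNT antagonists (-0.56 to 0.01) and the sclerostin receptors (-0.27 to 0.01). The other medians kept their sign, from -0.74 to -0.04 for the ligands, -0.18 to -0.01 for the receptors, -0.85 to -0.61 for the BMP targets, -1.78 to -1.42 for the SMAD2/3 targets and -0.68 to -0.29 for the bone-cell genes. The minimum of 1 FPKM was applied anew in each of these fits, so the tested genes of a list could differ. Without SB replicate 2, TLL1 (1.03 FPKM in SB replicate 1) joined BMP1 among the chordin proteases. BMP1 itself was lower with SB within both numbers (-0.15 and -0.22).

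With 2 libraries per group, values of NOG with SB and of SOSTDC1 rest on few fragments, and the cause of the differences between settings was not tested.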
